A study of Neurospora crassa with 42 samples.

Results

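In Neurospora crassa mycelium starved of carbon for 10 h, 79 of 9758 genes (0.81%) were higher without the histidine kinase gene os-1 and lower without the kinase gene os-2. The level of a gene was the mean over 3 replicates of log2(FPKM + 1), where FPKM is a fragment count scaled by transcript length and library total. The genes were chosen by these measured values: a gene was taken if this level was at least 0.6 above wild type in Δos-1 and at least 0.6 below wild type in Δos-2, and if its highest group mean at 10 h was at least 5 FPKM. Of the 82 genes that met these thresholds, 3 were left out. The same thresholds with the 2 directions exchanged were met by 22 genes, those for a rise without os-1 only by 212 genes, and those for a fall without os-2 only by 1350 genes.

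OS-1 is a hybrid histidine kinase that acts with the phosphotransfer protein HPT-1 and the response regulator RRG-1 as a phosphorelay. The relay controls a mitogen-activated protein kinase cascade in which OS-4 acts on OS-5 and OS-5 on OS-2, the counterpart of yeast Hog1. In filamentous fungi this pathway is known for adaptation to high osmolarity and for the response to phenylpyrrole and dicarboximide fungicides.

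The series held RNA-seq of 42 libraries in 14 groups of 3. At 10 h after transfer to Vogel's minimal medium without a carbon source there were 8 groups, namely wild type FGSC 2489, the single deletions Δos-1, Δos-2, Δclr-3 and Δcre-1, and 3 double deletions that lacked clr-3 together with os-1, with os-2 or with cre-1 (Δos-1Δclr-3, Δos-2Δclr-3, Δcre-1Δclr-3). At 4 h there were wild type, Δclr-3 and Pccg1-clr-2 without carbon, and wild type, Δclr-1 and Δclr-2 on Avicel, a microcrystalline cellulose. The Pccg1-clr-2 strain carries clr-2 under the ccg-1 promoter in a Δclr-2 background. CLR-1 and CLR-2 are transcription factors needed for cellulase expression, CLR-3 is a repressor of cellulase genes in the absence of an inducer, and CRE-1 is the carbon catabolite repressor. All cultures were first grown in sucrose medium and washed. The labels describe the replicates as biological, and whether the deletion strains are single isolates was not given in the sources used here.

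Library depth, as the files imply it, was 16.3 to 24.8 M fragments (M for mega) among the 10 h samples, and those taken at 4 h were more uneven, from 5.18 to 41.2 M. The SD of the log2 ratio between replicates was 0.132 to 0.282 at 10 h and 0.169 to 0.928 at 4 h. One library stood apart, wild type on Avicel replicate 1, with 5.18 M fragments and SDs of 0.865 and 0.928 against its other replicates. Transcripts of the deleted genes were low where the labels say so: os-1 was 4.89 to 5.13 FPKM in Δos-1 and 3.48 to 4.49 in Δos-1Δclr-3 against 167 to 187 in wild type, and os-2 was 5.70 to 8.52 in Δos-2 and 4.28 to 5.56 in Δos-2Δclr-3 against 198 to 229.7.

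The values that chose the 79 genes are given here as a description, without a test. The difference between Δos-1 and wild type had a median of 0.90 on the log2 scale and ran from 0.61 to 5.89, and the difference between Δos-2 and wild type had a median of -1.25 and ran from -4.99 to -0.61. Both differences were beyond 1 for 22 genes. The lowest Δos-1 library lay above the highest wild type library for 77 of the 79 genes, against 15.7% of the 8014 genes tested, and the highest Δos-2 library lay below the lowest wild type library for 78 of 79, against 60.8%. The exceptions were NCU00322 for Δos-1 and gh61-4 for both. The median over all genes was -0.09 for Δos-1 and -0.24 for Δos-2, so that part of the difference without os-2 was shared by most genes in FPKM. After libraries were rescaled by median ratio, the medians over the 79 genes were 0.99 and -1.005, all 79 kept both signs, and 58 of them were among the 65 genes that the same thresholds then chose. Nearest inside the threshold were NCU05151 at 0.61 for Δos-1 and NCU07318 at -0.61 for Δos-2. Nearest outside were NCU11046 at 0.58 and NCU02478 at -0.60, the latter just short of the threshold.

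**Figure D1:**
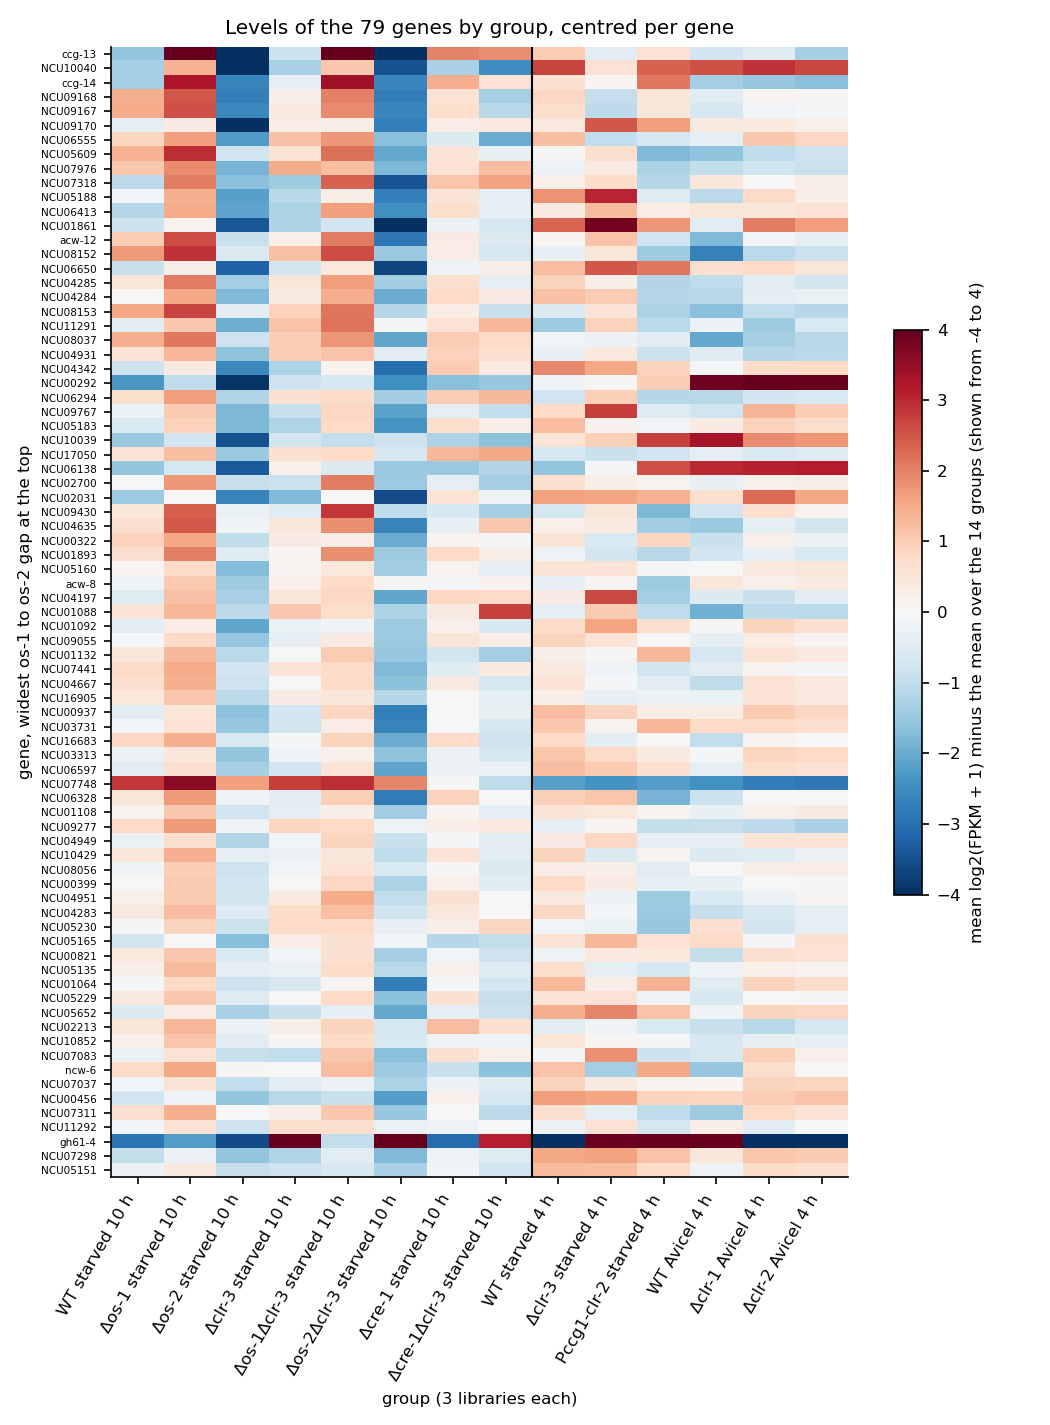
Heat map of the 79 genes (rows) in the 14 groups (columns), as the group mean of log2(FPKM + 1) minus the gene's mean over all groups, with colours from -4 to 4. Of the 8 groups at 10 h, the highest is Δos-1, whose values chose the genes, for 53 genes and Δos-1Δclr-3 for 15. The lowest is Δos-2, also used in the choice, for 20 genes and Δos-2Δclr-3 for 56.

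Only 6 of the 79 genes carry a symbol in the RefSeq table, and the other 73 are given by locus tag. Of the 6, 4 are cell wall protein genes by name: acw-8 and acw-12 encode anchored cell wall proteins, and ncw-6 and ccg-13 (also ncw-7) encode non-anchored cell wall proteins. The clock-controlled gene ccg-14 encodes a small secreted protein of the cerato-platanin type, and gh61-4 encodes a lytic polysaccharide monooxygenase, which cleaves cellulose oxidatively. In bulk RNA, fewer cells of a type and less RNA per cell cannot be told apart for any of these genes.

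The gene ccg-13 (NCU08907, NC12 assembly, linkage group V, 678921 to 680033) had the widest span between the strains. Its level was 39.9, 29.9 and 21.1 FPKM in wild type, 1756, 2091 and 1584 in Δos-1, and 7.70, 3.08 and 2.14 in Δos-2. The 3 groups did not overlap. In the Δclr-3 strains, which the choice of genes did not use, it was 41.6, 70.5 and 37.2 FPKM in Δclr-3, 2191, 1691 and 1879.8 in Δos-1Δclr-3, and 3.85, 2.74 and 2.40 in Δos-2Δclr-3. The order of the groups was the one seen with clr-3 present, again without overlap. With limma, ccg-13 rose by 5.29 ± 0.32 (log2 fold change ± SE, adjusted p = 3.3e-11) when os-1 was absent as well as clr-3, and fell by 3.63 ± 0.32 (adjusted p = 4.0e-09) when os-2 was absent as well.

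The gene ccg-14 (NCU07787, linkage group V, 301242 to 304089) was 25.9, 21.5 and 16.5 FPKM in wild type, 537, 597 and 434 in Δos-1, and 9.25, 7.48 and 7.002 in Δos-2. It was 38.3, 55.9 and 34.0 FPKM in Δclr-3, 588, 577 and 550.4 in Δos-1Δclr-3, and 8.04, 7.86 and 7.74 in Δos-2Δclr-3. Both sets of 3 groups were separate, high without os-1 and low without os-2. The limma log2 fold changes against Δclr-3 were 3.74 ± 0.25 (adjusted p = 1.6e-10) for Δos-1Δclr-3 and -2.27 ± 0.25 (adjusted p = 9.8e-08) for Δos-2Δclr-3.

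Among the cell wall protein genes, acw-12 (NCU08171, linkage group VII, 3621182 to 3623068) was 299.9, 292 and 283 FPKM in wild type, 948, 913 and 824 in Δos-1, and 85.1, 79.3 and 72.0 in Δos-2. In the Δclr-3 background it was 229, 144 and 145 FPKM in Δclr-3, 719, 504 and 612 in Δos-1Δclr-3, and 16.0, 26.3 and 17.1 in Δos-2Δclr-3. No 2 of these groups overlapped within a background, and the limma log2 fold changes against Δclr-3 were 1.84 ± 0.17 (adjusted p = 1.8e-08) and -3.06 ± 0.17 (adjusted p = 3.0e-12). The acw-12 locus overlaps another gene, and its reads may be shared, since the sources used here do not give the strand of the libraries.

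The gene ncw-6 (NCU00586, linkage group I, 7917286 to 7919672) was 76.0, 75.02 and 58.1 FPKM in wild type, 124, 122 and 112 in Δos-1, and 44.5, 40.1 and 40.5 in Δos-2. It was 44.4, 41.8 and 37.6 FPKM in Δclr-3, 98.5, 101 and 89.0 in Δos-1Δclr-3, and 12.95, 14.6 and 15.3 in Δos-2Δclr-3. Both sets were separate, and ncw-6 rose by 1.201 ± 0.09 (limma adjusted p = 1.1e-09) and fell by 1.47 ± 0.09 (adjusted p = 2.2e-11) against Δclr-3.

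The gene acw-8 (NCU07277, linkage group IV, 4546560 to 4549787) stood differently in the 2 backgrounds. It was 271, 315 and 237 FPKM in wild type, 728, 659 and 544 in Δos-1, and 125, 112 and 106 in Δos-2, with no overlap. In Δclr-3 it was 344, 354 and 379.5 FPKM, in Δos-1Δclr-3 522, 506 and 593, and in Δos-2Δclr-3 352, 330.1 and 285, where the last group overlapped Δclr-3. Neither limma difference reached a log2 fold change of 1: it was 0.59 ± 0.11 (adjusted p = 0.00014) without os-1 and -0.16 ± 0.11 (adjusted p = 0.18) without os-2. Whether the difference between backgrounds exceeds the replicate error was not tested.

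The last gene with a symbol, gh61-4 (NCU01050, linkage group V, 2769232 to 2770004), met the thresholds with overlapping libraries and ran the other way in the Δclr-3 background. It was 7.67, 6.53 and 17.3 FPKM in wild type, 15.03, 42.0 and 6.20 in Δos-1, and 7.32, 5.06 and 4.90 in Δos-2. It was 3269, 7505 and 5994 FPKM in Δclr-3, 20.5, 47.6 and 60.3 in Δos-1Δclr-3, and 15678, 16728 and 14185 in Δos-2Δclr-3. These 3 groups did not overlap. With limma, gh61-4 fell by 7.04 ± 0.50 (adjusted p = 3.3e-10) without os-1 and rose by 1.55 ± 0.50 (adjusted p = 0.0082) without os-2. The second call was lost without Δclr-3 replicate 1 (1.21, adjusted p = 0.053).

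**Figure D2:**
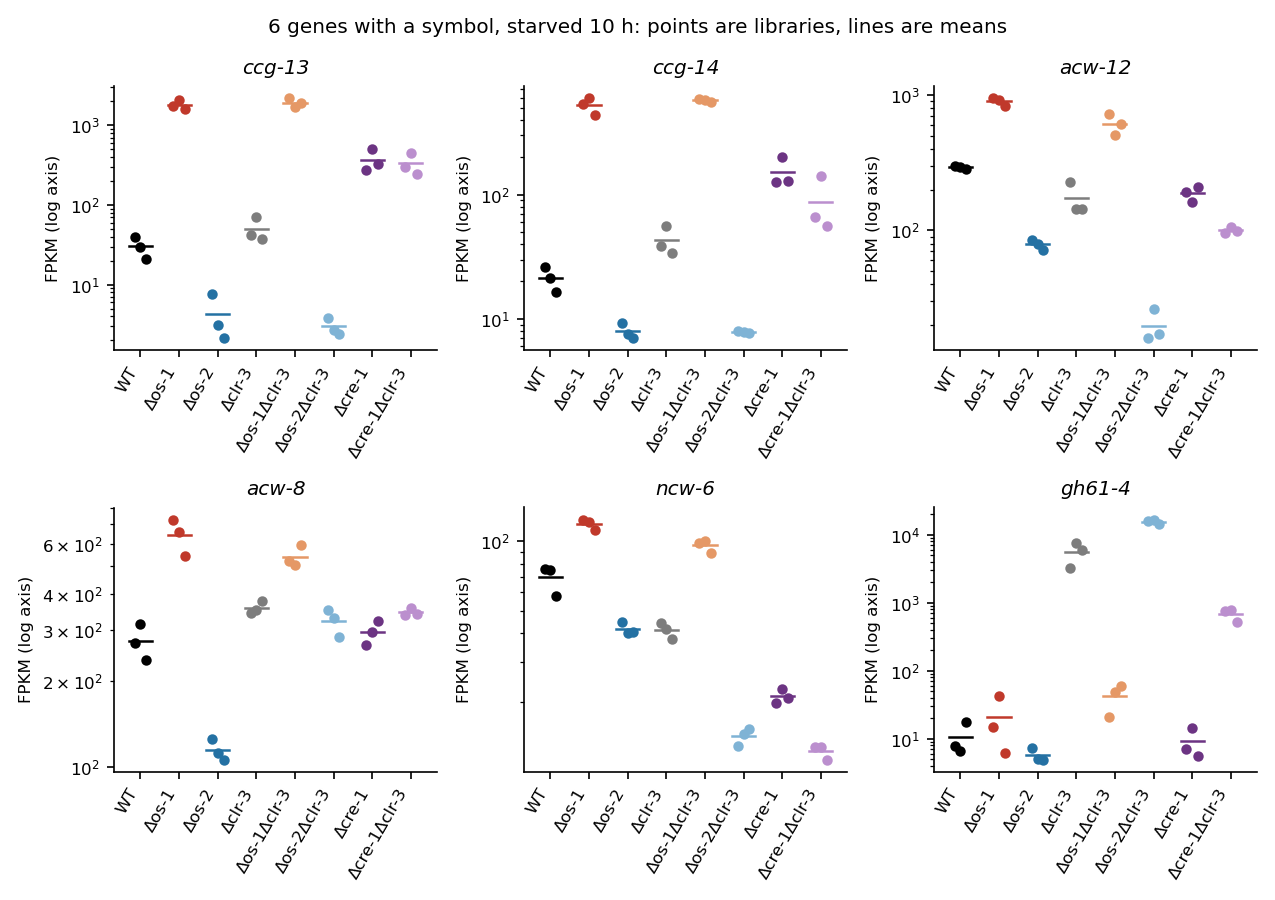
FPKM on a log axis of the 6 genes with a symbol in the 8 groups sampled at 10 h, with 1 point per library. For ccg-13, ccg-14, acw-12 and ncw-6 the 3 libraries of Δos-1Δclr-3 sit above those of Δclr-3 and the 3 of Δos-2Δclr-3 below, and gh61-4 shows the opposite order.

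The Δclr-3 background gave the comparison that did not rest on the libraries used to choose the genes. All 79 genes passed the filter of a mean of at least 1 FPKM in the fits at 10 h and at 4 h. The thresholds had already kept out low genes. In limma, a call required a fold of at least 2 and an adjusted p under 0.05 (Benjamini-Hochberg, over all genes tested). Δos-1Δclr-3 and Δos-2Δclr-3 were each compared with the same 3 Δclr-3 libraries, so these 2 comparisons are not independent of each other.

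Without os-1, 31 of the 79 genes rose and 1 fell against Δclr-3, where 3.11% of all genes rose and 2.53% fell. The median log2 fold change of the 79 genes was 0.77 and that of all genes -0.00. The libraries of Δos-1Δclr-3 all lay above those of Δclr-3 for 56 genes and all below for 4, against 28.8% and 28% of all genes. Of the 212 genes higher only without os-1, 111 rose and 2 fell.

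Among the genes that rose were several known only by locus tag. NCU07318 was 25.1, 20.2 and 28.8 FPKM in wild type, 207, 210.1 and 234 in Δos-1, and 16.6, 13.3 and 17.2 in Δos-2, without overlap. In the Δclr-3 background it was 14.97, 20.2 and 20.8 FPKM in Δclr-3 and 258, 305 and 247 in Δos-1Δclr-3, a rise of 3.79 ± 0.17 (limma adjusted p = 2.2e-13), and 4.34, 2.79 and 4.50 in Δos-2Δclr-3, a fall of 2.02 ± 0.17 (adjusted p = 2.2e-09). NCU09430 was 13.7, 13.1 and 12.8 FPKM in wild type and 47.0, 47.3 and 66.9 in Δos-1, and 7.01, 5.37 and 6.74 in Δclr-3 and 71.3, 76.4 and 68.8 in Δos-1Δclr-3. Both pairs of groups were far apart, and its rise against Δclr-3 was 3.32 ± 0.12 (limma adjusted p = 1.6e-14). The highest Δos-2Δclr-3 library of NCU09430 (4.35 FPKM) was below the Δclr-3 libraries, but the log2 difference of -0.51 ± 0.12 was not called. NCU06413, whose locus overlaps another gene, rose by 2.90 ± 0.20 (limma adjusted p = 3.2e-10) without os-1. It fell by 1.18 ± 0.20 without os-2, a call that was lost with a pseudocount of 5.

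Without os-2, 1 of the 79 genes rose and 61 fell against Δclr-3, where 2.72% of all genes rose and 5.74% fell. The median log2 fold change was -1.49 for the 79 genes and -0.29 for all genes. All libraries of Δos-2Δclr-3 lay below those of Δclr-3 for 75 genes and above for 1, against 63.3% and 12.4% of all genes. Of the 1347 tested genes lower only without os-2, 319 fell and 6 rose. Median-ratio rescaling moved the median of all genes to 0.00 and left 52 of the 79 genes called lower and 1 higher. Shares of all genes, here and below, belong to the fit of all libraries without rescaling, and none are given for other settings.

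The 5 largest falls were those of ccg-13, NCU07976, NCU04635, acw-12 and NCU08037. NCU07976 was 16.1, 16.5 and 17.5 FPKM in Δclr-3 and 0.975, 0.789 and 0.742 in Δos-2Δclr-3, a fall of 3.27 ± 0.18 (limma adjusted p = 2.7e-12). NCU04635 was 230.5, 182 and 163 FPKM in Δclr-3 and 23.9, 18.3 and 22.5 in Δos-2Δclr-3, a fall of 3.09 ± 0.11 (adjusted p = 6.9e-15). Neither pair of groups overlapped. NCU04635 also rose by 1.41 ± 0.11 (limma adjusted p = 9.2e-10) in Δos-1Δclr-3, whereas NCU07976 differed from Δclr-3 by -0.27 ± 0.18 (adjusted p = 0.22) there. NCU08037, whose locus overlaps another gene, fell by 3.04 ± 0.11 (limma adjusted p = 9.1e-15) without os-2 and was 0.80 ± 0.11 higher without os-1, short of the fold required.

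Among the other genes with the widest gap between Δos-1 and Δos-2, NCU05609 was 26.8, 25.0 and 21.2 FPKM in Δclr-3, 93.0, 60.7 and 81.4 in Δos-1Δclr-3, and 3.05, 3.66 and 2.82 in Δos-2Δclr-3. The groups were separate, with a rise of 1.63 ± 0.13 (limma adjusted p = 2.5e-09) and a fall of 2.60 ± 0.13 (adjusted p = 9.2e-13), and the locus overlaps another gene. NCU01861 fell by 2.85 ± 0.16 (limma adjusted p = 5.1e-12) without os-2, and without os-1 its difference of 0.46 ± 0.16 was not called. NCU06555 was 23.0, 61.4 and 39.2 FPKM in Δclr-3, 48.9, 58.5 and 64.2 in Δos-1Δclr-3, and 5.13, 4.87 and 3.70 in Δos-2Δclr-3. Δos-1Δclr-3 overlapped Δclr-3 there (0.56 ± 0.30, limma adjusted p = 0.12), and the fall without os-2 was 2.83 ± 0.30 (adjusted p = 4.5e-08). NCU06650 fell by 2.93 ± 0.21 (limma adjusted p = 1.8e-10) without os-2, and its rise of 1.17 ± 0.21 without os-1 dropped under the required fold without Δclr-3 replicate 1 (0.93). NCU05188 was called in both directions, at 1.38 ± 0.14 and -1.62 ± 0.14, and NCU11291 at 1.03 ± 0.18 and -1.21 ± 0.18. Their calls were lost with a pseudocount of 5, and the rise of NCU11291 also without Δos-1Δclr-3 replicate 2 (0.87) or Δclr-3 replicate 3 (0.95). The fall of NCU11291 was also under the required fold after rescaling (-0.92) and in the whole-series table (-0.91).

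When the double deletions were compared with each other, 71 of the 79 genes were higher in Δos-1Δclr-3 and 1, gh61-4, was lower, where 6.84% of all genes were higher and 3.13% lower. This comparison shares libraries with the previous 2. The median log2 difference was 2.50 for the 79 genes and 0.30 for all genes, and no library overlapped for 76 genes in the first direction and 1 in the second, against 65.3% and 12% of all genes. After rescaling, 67 were called higher and 1 lower. The largest positive differences were 8.92 ± 0.32 for ccg-13, 6.01 ± 0.25 for ccg-14, 5.81 ± 0.17 for NCU07318 and 4.90 ± 0.17 for acw-12, all with limma adjusted p at or below 1.7e-14. The 7 genes that were not called were NCU10039, NCU05151, NCU05165, acw-8, NCU06138, NCU11292 and NCU09277, with log2 differences from -0.11 to 1.00.

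**Figure D3:**
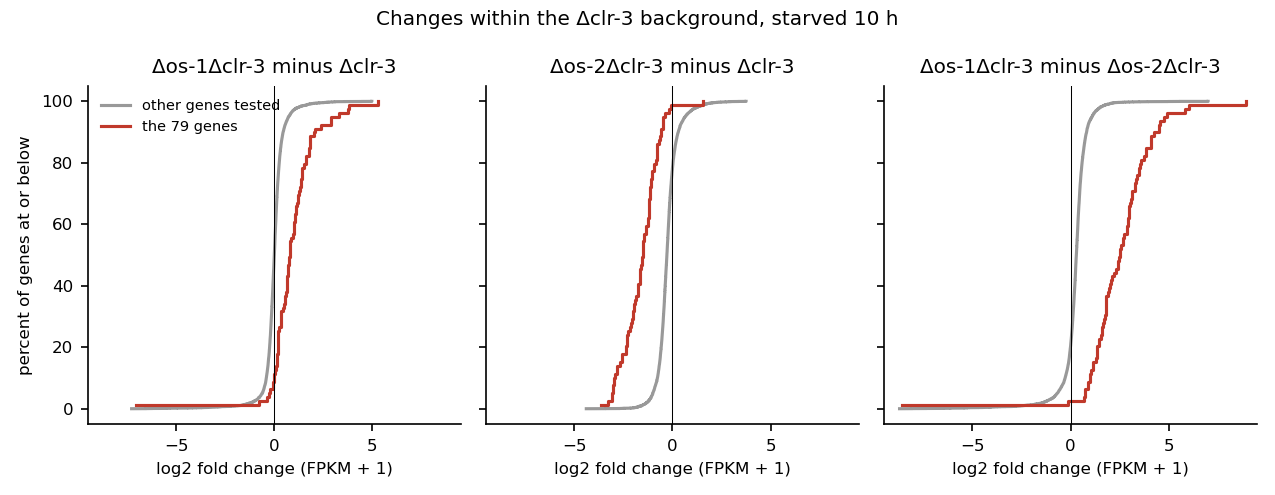
Cumulative share of genes against the log2 fold change in 3 comparisons within the Δclr-3 background, for the 79 genes and for the other genes tested. The median of the 79 genes lies at 0.77 for Δos-1Δclr-3 against Δclr-3, at -1.49 for Δos-2Δclr-3 against Δclr-3, and at 2.50 for Δos-1Δclr-3 against Δos-2Δclr-3.

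The median over the 79 genes of the group mean level was 21.0 FPKM in wild type, 43.4 in Δos-1, 7.17 in Δos-2, 18.7 in Δclr-3, 41.0 in Δos-1Δclr-3 and 5.35 in Δos-2Δclr-3. No gene had a mean under 1 FPKM in wild type, Δos-1, Δclr-3 or Δos-1Δclr-3 at 10 h, whereas 11 did in Δos-2 and 11 in Δos-2Δclr-3. The libraries of Δclr-3 and wild type at 10 h were compared by values only, since the wild type libraries had served to choose the genes. The median log2 difference between Δclr-3 and wild type was -0.25 for the 79 genes and -0.29 for all genes.

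The loci of the 79 genes were not spread evenly. For 14 of the 79 (17.7%) an immediate neighbour on the NC12 assembly was also among the 79, against 95 of 7248 other genes with a group mean of at least 5 FPKM (1.31%) that had one of the 79 as a neighbour, and no 2 neighbouring loci of the 79 overlapped. Linkage group IV held 24 of the 79 genes (30.4%, against 14.9% of the 7327 genes with a group mean of at least 5 FPKM), and linkage group II held 1 (1.27%, against 10.6% of those genes). With gaps of at most 5 genes, 10 runs held 25 of the 79 genes. These are descriptions, and no test was made of them.

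On linkage group III, NCU09167, NCU09168 and NCU09170 lay between 230217 and 241233, a span of 4 genes. NCU09168 was 16.5, 17.5 and 22.5 FPKM in wild type, 41.0, 38.8 and 38.0 in Δos-1, and 0.153, 0.0431 and 0.0417 in Δos-2. In the Δclr-3 background it was 8.89, 6.09 and 7.31 FPKM in Δclr-3, 31.7, 29.1 and 24.2 in Δos-1Δclr-3, and 0.0441, 0.107 and 0.0232 in Δos-2Δclr-3. The libraries without os-2 were near 0 in both backgrounds. NCU09168 rose by 1.80 ± 0.20 (limma adjusted p = 2.2e-07) and fell by 2.98 ± 0.20 (adjusted p = 4.9e-11) against Δclr-3, on a log2(FPKM + 1) scale that understates falls to such levels.

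Its neighbour NCU09167 was 14.0, 16.0 and 22.2 FPKM in wild type, 38.3, 37.1 and 37.9 in Δos-1, and 0.175, 0.0415 and 0.0603 in Δos-2. It rose by 1.51 ± 0.19 (limma adjusted p = 1.4e-06) without os-1 and fell by 3.00 ± 0.19 (adjusted p = 2.6e-11) without os-2 in the Δclr-3 background. NCU09170 was 27.9, 55.8 and 51.1 FPKM in Δclr-3, 37.1, 45.9 and 42.2 in Δos-1Δclr-3, and 4.57, 5.29 and 3.40 in Δos-2Δclr-3. It shared the fall (3.04 ± 0.21, limma adjusted p = 8.9e-11), but Δos-1Δclr-3 lay within the range of Δclr-3 (-0.05 ± 0.21, adjusted p = 0.86). NCU09169, which lies between them and is not one of the 79 genes, differed from wild type by 0.56 in Δos-1 and -1.25 in Δos-2.

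The run with the most genes lay on linkage group IV between 5903497 and 5943417, where 5 of 11 genes were among the 79. Its leading gene, NCU10040 (5939000 to 5940994), was 329.8, 247 and 251 FPKM in wild type, 1655, 2201 and 1532 in Δos-1, and 11.7, 5.76 and 6.41 in Δos-2. In the Δclr-3 background it was 379.9, 236 and 235 FPKM in Δclr-3, 1515, 1409 and 1393 in Δos-1Δclr-3, and 58.6, 46.4 and 78.5 in Δos-2Δclr-3. The groups were separate in both backgrounds, with a rise of 2.38 ± 0.25 (limma adjusted p = 1.6e-07) and a fall of 2.19 ± 0.25 (adjusted p = 1.7e-07) against Δclr-3. NCU05160 and NCU16905 fell without os-2 in that background (by 1.49 each) and were not called without os-1, and NCU05165 was called in neither comparison. The loci of NCU05160 and NCU05165 overlap other genes.

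The fifth gene of this run, NCU10039, did not follow its neighbour. It was 3.35, 3.42 and 2.58 FPKM in wild type, 5.82, 6.82 and 4.76 in Δos-1, and 0.0366, 0 and 0.0399 in Δos-2. In Δclr-3 it was 5.48, 6.37 and 6.05 FPKM, in Δos-1Δclr-3 4.89, 5.33 and 4.84, and in Δos-2Δclr-3 5.30, 5.40 and 5.81. These 9 libraries lay between 4.84 and 6.37 FPKM, and the limma differences against Δclr-3 were -0.21 ± 0.11 (adjusted p = 0.12) and -0.10 ± 0.11 (adjusted p = 0.42). The Δcre-1Δclr-3 libraries were lower, at 3.10, 2.96 and 2.196 FPKM, and their difference of -0.90 ± 0.11 (limma adjusted p = 1.8e-07) was under the required fold.

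On linkage group V, NCU04283, NCU04284 and NCU04285 are 3 adjacent loci between 5494100 and 5499495. NCU04284 was 138, 119 and 104 FPKM in wild type, 341, 348 and 356 in Δos-1, and 38.9, 32.2 and 35.1 in Δos-2, without overlap. It rose by 1.12 ± 0.12 (limma adjusted p = 9.7e-08) without os-1 and fell by 2.34 ± 0.12 (adjusted p = 6.7e-13) without os-2 in the Δclr-3 background. NCU04285 did likewise by 1.18 and -1.88, calls that were lost with a pseudocount of 5. Its wild type level was low, at 2.77 to 4.08 FPKM. NCU04283 was called only without os-2 (-1.55).

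**Figure D4:**
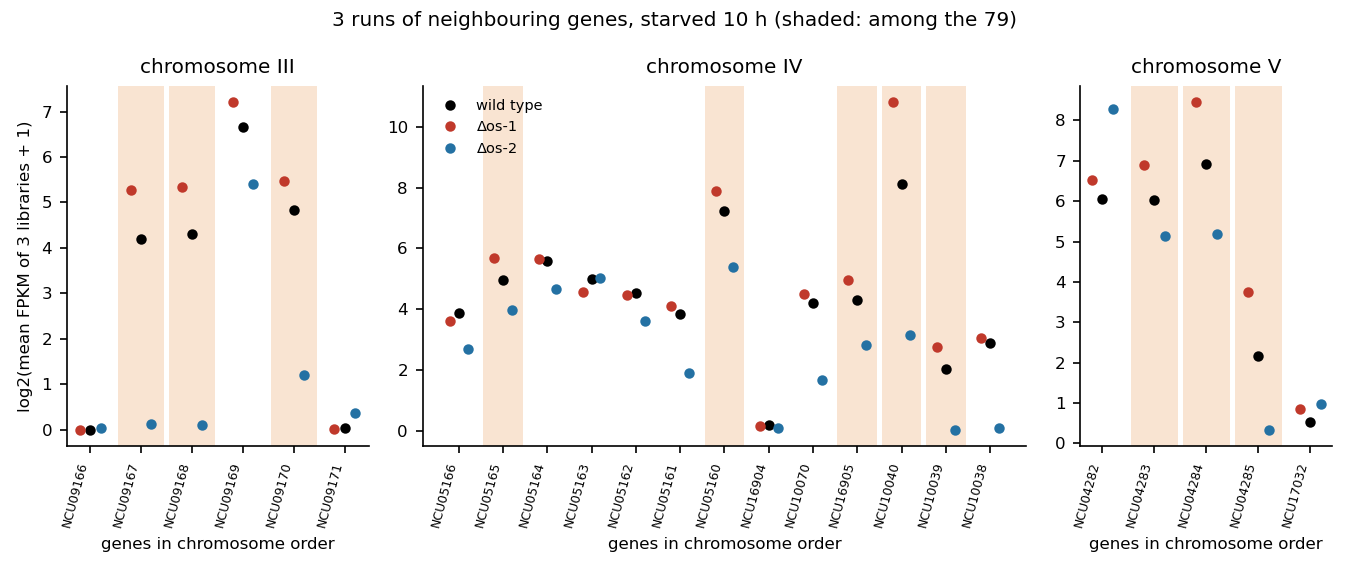
Values of log2(group mean FPKM + 1) in wild type, Δos-1 and Δos-2 at 10 h along 3 runs of neighbouring genes, in gene order, with the 79 genes shaded. In the run on linkage group III, NCU09167, NCU09168 and NCU09170 are near 0 or low without os-2, and in the run on linkage group IV NCU10040 has the widest span.

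A pair on linkage group VII, NCU08152 and NCU08153 (3554688 to 3560515), followed both changes. NCU08152 was 60.8, 71.4 and 72.65 FPKM in Δclr-3, 187, 182 and 184 in Δos-1Δclr-3, and 9.36, 12.3 and 8.59 in Δos-2Δclr-3. The groups were separate, with a rise of 1.43 ± 0.10 (limma adjusted p = 3.1e-10) and a fall of 2.66 ± 0.10 (adjusted p = 2.0e-14). NCU08153, at 6.33, 6.99 and 9.22 FPKM in Δclr-3, rose by 1.25 ± 0.13 (limma adjusted p = 1.0e-07) and fell by 2.04 ± 0.13 (adjusted p = 2.5e-11). The rise of NCU08153 was lost with a pseudocount of 5.

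No gene of the upstream pathway was among the 79, but os-1, deleted in Δos-1, could not have met the thresholds. Of the 8 genes of the osmosensing cascade (os-1, hpt-1, rrg-1, os-4, os-5, os-2, rrg-2 and asl-1), 7 were tested against Δclr-3 in each double deletion, and limma called none: their log2 fold changes ran from -0.41 to 0.65 without os-1, where 4 had an unadjusted p under 0.05, and from -0.70 to -0.16 without os-2, where 7 did. The median of the cascade genes tested was 0.09 without os-1 and -0.31 without os-2, against -0.00 and -0.29 for all genes. The share of all genes with an unadjusted p under 0.05 is not given here. Between the double deletions 1 of 6 was called, rrg-1, at 1.21 higher in Δos-1Δclr-3. The median was 0.67 for these 6 and 0.30 for all genes. Of 4 genes reported as outputs of the pathway (ccg-1, bli-3, cat-1 and gcy-1), gcy-1 rose without os-1 and ccg-1 and bli-3 fell without os-2 in the Δclr-3 background. All 4 were higher in Δos-1Δclr-3 than in Δos-2Δclr-3. With clr-3 present, gcy-1 was 16.7 FPKM in wild type, 38.6 in Δos-1 and 39.8 in Δos-2, so it was higher in both. In the same order cat-1 was 179, 242 and 185, bli-3 415, 451 and 279, and ccg-1 16834, 14864 and 9190. None of these 12 genes was one of the 79, to which only 1.08% of genes with a group mean of at least 5 FPKM belong.

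The families of the genes with symbols were looked at after their values were seen, and are given as counts with no test of the family. Of 19 acw and ncw genes in the RefSeq table, 4 were among the 79, 7 rose without os-1, and 5 fell and 1 rose without os-2 in the Δclr-3 background. Of 12 ccg genes, 2 were among the 79, 3 rose and 1 fell without os-1, and 5 fell and 1 rose without os-2. The gene ccg-13 (also ncw-7) is counted in both families. Of all genes tested, 3.11% rose and 2.53% fell without os-1, and 2.72% rose and 5.74% fell without os-2. Of 9 gh61 genes tested, 7 fell without os-1 and 4 rose without os-2, and gh61-4, called in both of these directions, was the 1 gene of the 79 so called in either comparison.

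Markers of conidia and aerial hyphae moved between the groups. The summed FPKM of 6 such genes (eas, con-6, con-8, con-10, fl and acon-3) was 5794 to 8867 in wild type, 13127 to 20037 in Δos-1 and 19760 to 21436 in Δos-2. In the Δclr-3 background it was 4684 to 5115 in Δclr-3, 16849 to 20724 in Δos-1Δclr-3 and 7692 to 10691 in Δos-2Δclr-3. The sum was above its control in every strain without os-1 or os-2, but without eas, a hydrophobin gene left out after its values were seen, this did not hold. The sum of the other 5 genes was 1899.7 to 2632 FPKM in wild type, 2533 to 2747 in Δos-1 and 2353 to 2612 in Δos-2, and these ranges overlapped. Within this sum single genes moved in opposite directions. In Δos-2 mean FPKM was 343 for con-6, 1745 for con-8, 133 for fl and 93.1 for acon-3. Wild type had 178, 1117, 47.7 and 32.6, and no library overlapped. The gene con-10 was lower, at 150 against 988. In Δos-1, con-6, con-8 and fl lay above wild type, con-10 lay below, and acon-3 overlapped. In the Δclr-3 background the sum of the 5 genes without eas was 2507 to 2916 in Δclr-3 and 2793 to 2994 in Δos-1Δclr-3. It was 2022 to 2184 in Δos-2Δclr-3, which lay below its control. In Δos-2Δclr-3 against Δclr-3, eas was 6893 ± 1458 FPKM against 2196 ± 18.1, con-8 1165 ± 109.8 against 1304 ± 11.4, and con-10 692 ± 58.0 against 1209.8 ± 199 (SD, n = 3). By the same measure acon-3 was 29.3 ± 2.68 against 14.0 ± 1.76, fl 31.2 ± 2.72 against 30.9 ± 1.87, and con-6 170 ± 25.6 against 192 ± 25.2. Without os-1, 3 of the 6 rose and 1 fell against Δclr-3, and without os-2, 2 rose, and no marker was at 0 in all libraries of a group. The part of these cells in the results was not tested.

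On loss of cre-1 in the Δclr-3 background, genes of the 79 were called in both directions. Between Δcre-1Δclr-3 and Δclr-3, 8 of the 79 genes rose (10.1%), 13 fell (16.5%) and 58 were not called. Of all genes, 4.48% rose and 10.1% fell. All libraries lay above those of Δclr-3 for 22 genes and below for 35, against 17.2% and 63.6% of all genes. The median log2 fold change was -0.20 for the 79 genes and -0.38 for all genes, and after rescaling these were 0.14 and -0.01, so that the sign of the first turned. The counts were then 15 and 9, for which the shares of all genes above are not the matching ones.

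The rises were led by NCU07318, at 137, 205 and 149 FPKM in Δcre-1Δclr-3 (3.06 ± 0.17, limma adjusted p = 3.1e-12), and by ccg-13, at 299.5, 451 and 247 FPKM (2.73 ± 0.32, adjusted p = 1.3e-07). For both genes these libraries were above every Δclr-3 library and below every Δos-1Δclr-3 library. The falls were led by NCU07748, which was 584, 345 and 375 FPKM in Δclr-3 and 31.0, 31.0 and 28.4 in Δcre-1Δclr-3 (-3.77 ± 0.22, limma adjusted p = 4.0e-12). NCU06555 was 23.0, 61.4 and 39.2 FPKM in Δclr-3 and 3.14, 5.27 and 2.29 in Δcre-1Δclr-3, a fall of 3.15 ± 0.30 (limma adjusted p = 4.3e-09). The gene ncw-6 fell as well, by 1.67 ± 0.09 (limma adjusted p = 2.4e-12), as did the pair NCU08152 and NCU08153, by 1.83 and 1.81. The fall of NCU08153 was lost with a pseudocount of 5. gh61-4 fell by 2.95 ± 0.50 (limma adjusted p = 1.5e-05), to 758, 790.5 and 527 FPKM.

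At 4 h the strains without os-1 or os-2 were not sampled, and the wild type and clr strains gave a second set of conditions that the choice of genes had not used. The median group mean of the 79 genes was 34.6 FPKM in wild type without carbon and 15.5 on Avicel. On Avicel, 5 of the 79 genes rose and 37 fell, where 3.05% of all genes rose and 7.47% fell. The median log2 fold change was -0.94 for the 79 genes and -0.39 for all genes. The libraries were separate for 7 genes that were higher on Avicel and 42 that were lower, against 5.36% and 39.1% of all genes. Without wild type Avicel replicate 1 the counts were 4 and 32. After rescaling, which moved the median of all genes to 0.00, they were 7 and 18, and with the 2 groups fitted alone 14 genes were called in all. The shares of all genes above do not belong to these fits.

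The falls on Avicel included NCU05188, which was 26.8, 38.2 and 35.6 FPKM without carbon and 6.14, 3.82 and 2.26 on Avicel (-2.82 ± 0.32, limma adjusted p = 1.3e-05). NCU01861 was 69.2, 155 and 254 FPKM without carbon and 12.8, 27.3 and 21.8 on Avicel (-2.77 ± 0.36, limma adjusted p = 6.2e-05). No library overlapped for either gene. The cell wall protein genes ncw-6 (-2.66 ± 0.41, limma adjusted p = 0.00029) and acw-12 (-1.84 ± 0.21, adjusted p = 1.7e-05) fell too, as did NCU08152 (-2.37 ± 0.31, adjusted p = 5.8e-05). For ccg-13 the values were 200.4, 118 and 247 FPKM without carbon and 162, 31.3 and 26.1 on Avicel, where the groups overlapped in 1 library. The calls of ccg-13 (-1.80, limma adjusted p = 0.034) and ccg-14 (-1.95, adjusted p = 0.017) were lost after rescaling, at adjusted p of 0.19 and 0.13. They were also lost without wild type Avicel replicate 2 (-1.45 and -1.58, limma adjusted p = 0.097 and 0.055) or 3 (-1.32 and -1.28, adjusted p = 0.11 and 0.068), and that of ccg-13 without wild type starvation replicate 1 or 3 (-1.72 and -1.57, adjusted p = 0.081 and 0.11).

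The rises on Avicel were led by gh61-4, which was 0.0822, 0.552 and 0.486 FPKM without carbon and 7076, 3237 and 4144 on Avicel (11.72 ± 0.28, limma adjusted p = 2.4e-13). On Avicel it was 0.555, 0.558 and 0.592 FPKM in Δclr-1. In Δclr-2 on Avicel 1 library had 0.196 FPKM, and it was listed at 0 in the other 2. NCU06138 was 29.8, 9.65 and 29.2 FPKM without carbon and 243, 712 and 767 on Avicel, without overlap (4.57 ± 0.50, limma adjusted p = 9.3e-06). On Avicel no difference from wild type was called for NCU06138 in Δclr-1 (0.07 ± 0.50, limma adjusted p = 0.92) or Δclr-2 (0.16 ± 0.50, adjusted p = 0.82). NCU10039, the gene at the end of the run on linkage group IV, was 10.3, 20.7 and 18.4 FPKM without carbon and 73.6, 137 and 144 on Avicel (2.77 ± 0.40, limma adjusted p = 0.00018). NCU00292 rose from 12.2, 9.17 and 41.0 FPKM to 56.1, 629.7 and 669 (4.02 ± 0.70, limma adjusted p = 0.00077), a call lost with the 2 groups fitted alone (adjusted p = 0.074). The fifth, NCU11291, rose by 1.22 and lost its call without wild type Avicel replicate 1 (0.83, adjusted p = 0.11) and without wild type starvation replicate 1 (1.00, adjusted p = 0.085).

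**Figure D5:**
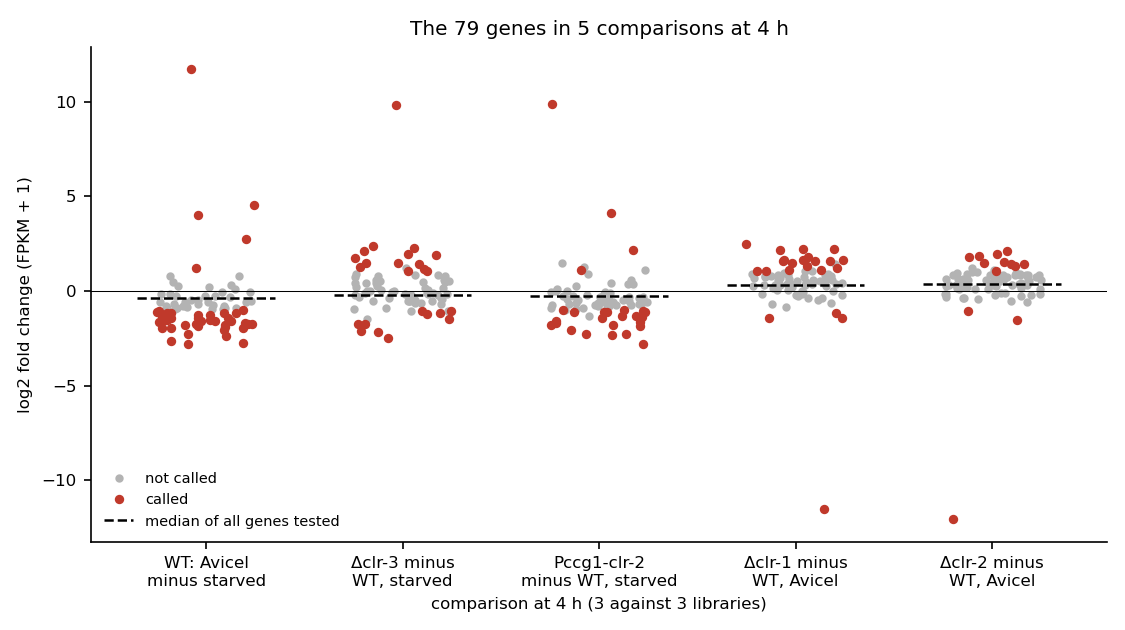
Log2 fold change of each of the 79 genes in 5 comparisons at 4 h, with called genes in red and the median of all genes as a dashed line. The points on Avicel against no carbon lie mostly below 0, with a median of -0.94, and gh61-4 is the extreme point in each comparison.

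In Δclr-3 without carbon at 4 h, 14 of the 79 genes rose and 10 fell against wild type, where 3.16% of all genes rose and 7.45% fell. All libraries were above wild type for 25 genes and below for 24, against 14.5% and 39% of all genes. The medians were -0.07 for the 79 genes and -0.19 for all genes, and after rescaling the first turned to 0.11 and the counts were 18 and 7. Without wild type starvation replicate 3 the median of the 79 genes was 0.08. gh61-4 rose by 9.84 ± 0.28 (limma adjusted p = 3.4e-12), to 814, 1721 and 1359.7 FPKM. NCU11291 was 1.32, 2.38 and 3.07 FPKM in wild type and 12.4, 17.4 and 16.5 in Δclr-3 (2.36 ± 0.39, limma adjusted p = 0.00055), and NCU04197 was 32.3, 108 and 43.3 FPKM in wild type and 200, 242 and 387 in Δclr-3 (2.29 ± 0.44, adjusted p = 0.0015). Neither pair of groups overlapped. In the other direction, NCU10040 was 2503, 5585 and 6359.8 FPKM in wild type and 959, 810.0 and 1385 in Δclr-3 (-2.12 ± 0.38, limma adjusted p = 0.00097), and ncw-6 fell by 2.50 ± 0.41 (adjusted p = 0.00054). The run on linkage group III split, with NCU09167 (-1.76) and NCU09168 (-1.73) lower and NCU09170 (2.10 ± 0.56, limma adjusted p = 0.012) higher. The call of NCU09170 was lost without wild type starvation replicate 1 (1.64, adjusted p = 0.062).

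In Pccg1-clr-2 without carbon, 4 of the 79 genes rose and 22 fell against wild type, where 2.76% of all genes rose and 7.73% fell. All libraries were above wild type for 7 genes and below for 40, against 7.2% and 38.6% of all genes. The medians were -0.62 and -0.29, and after rescaling the counts were 4 and 12. This comparison, that of Avicel and that of Δclr-3 at 4 h share the wild type libraries without carbon. gh61-4 rose by 9.87 ± 0.28 (limma adjusted p = 5.3e-13), NCU06138 by 4.15 ± 0.50 (adjusted p = 2.1e-05) and NCU10039 by 2.19 ± 0.40 (adjusted p = 0.00095). NCU05188 was 11.1, 3.82 and 4.80 FPKM in Pccg1-clr-2, below its wild type libraries (-2.29 ± 0.32, limma adjusted p = 9.0e-05). NCU04284 and NCU04285 of the run on linkage group V fell by 2.32 ± 0.46 (limma adjusted p = 0.0015) and 2.07 ± 0.20 (adjusted p = 1.8e-06). The call of NCU04285 was lost with a pseudocount of 5 (-0.88). NCU06328 fell by 2.81 ± 0.62 (limma adjusted p = 0.0033), with wild type libraries that ran from 11.1 to 79.1 FPKM.

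On Avicel, 18 of the 79 genes rose and 4 fell in Δclr-1 against wild type, where 5.84% of all genes rose and 2.48% fell, and 10 rose and 3 fell in Δclr-2, where 4.23% rose and 2.21% fell. The median was 0.58 in Δclr-1, against 0.33 for all genes, and 0.56 in Δclr-2, against 0.37. All libraries were above wild type for 36 genes in Δclr-1 and 33 in Δclr-2, against 40.2% and 47.4% of all genes, and below for 6 and 3, against 6.89% and 5.48%. Without wild type Avicel replicate 1, which both comparisons share, the counts were 15 and 4 in Δclr-1 and 11 and 2 in Δclr-2. After rescaling they were 12 and 6 in Δclr-1 and 7 and 3 in Δclr-2, and with the 2 groups fitted alone 9 and 2 in Δclr-1 and 4 and 1 in Δclr-2.

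NCU01861 was 119, 114 and 115 FPKM in Δclr-1 and 99.5, 81.0 and 86.5 in Δclr-2 on Avicel, all above the wild type libraries (2.50 ± 0.36, limma adjusted p = 0.00024, and 2.11 ± 0.36, adjusted p = 0.0011). For acw-12 the values were 114, 157 and 138 FPKM in Δclr-1 and 88.9, 134 and 125 in Δclr-2 against 37.5, 45.1 and 44.8 in wild type. It rose by 1.65 ± 0.21 (limma adjusted p = 7.7e-05) and 1.41 ± 0.21 (adjusted p = 0.00043). NCU08152 rose by 1.65 ± 0.31 and 1.84 ± 0.31 (limma adjusted p = 0.0017 and 0.0010). NCU07311 was 71.5, 298 and 303 FPKM in wild type and 734.5, 970.2 and 928 in Δclr-1, a rise of 2.22 ± 0.43 (limma adjusted p = 0.0023) that was lost with the 2 groups fitted alone (adjusted p = 0.071). NCU09767 rose by 2.15 ± 0.43 in Δclr-1 and 1.78 ± 0.43 in Δclr-2 (limma adjusted p = 0.0029 and 0.0088), and the second was lost after rescaling (adjusted p = 0.058). The largest falls were those of gh61-4, by 11.51 ± 0.28 in Δclr-1 and 12.07 ± 0.28 in Δclr-2 (limma adjusted p = 3.1e-13 and 1.5e-13).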

How the data were processed

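Each of the 42 libraries had a deposited file of FPKM per gene; per the submitters' processing notes HISAT2 2.0.5 and Cufflinks 2.2.1 were used, with roles, strand and annotation release not given in the sources used here. FPKM divides by the library total, so a few abundant transcripts shift all other genes. Loci in the files matched the RefSeq NC12 table for all 79 genes, and symbols come from it. The authors' whole-series FPKM table was an alternative only; 31 of its 42 columns bear a replicate number other than that of the library file with the same values, and 75 of the 79 genes are in it. Of 9758 genes, 12 without an OK status in some library were dropped. Depths are implied by the confidence limits in the files.

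log2(FPKM + 1) was fitted in limma 3.58.1 (R 4.3.3), with 24 libraries at 10 h and 18 at 4 h apart, a mean of at least 1 FPKM, group means, trend, and no block. Fold changes on this scale understate low genes. A deleted or altered gene was left out of its own strain's comparisons. The scripts were tested on simulated data. The 79 genes and the gene lists were chosen with earlier results of these data known. Named with values were the 20 genes with the widest gap between Δos-1 and Δos-2, up to 5 called genes with the largest change in each comparison, genes with a symbol, genes nearest the threshold, and the genes of the runs. Replicates with the same number deviated together (all 3 correlations over 0.1) for Δcre-1Δclr-3 and Δclr-3 (0.112 to 0.155) and for Δclr-1 and wild type on Avicel (0.212 to 0.395). In the second, a pair with different numbers reached 0.452, so pairing by number is not shown there. For Δclr-3 and wild type at 4 h, same-number correlations were 0.086 to 0.227, against at most 0.017 for other pairs. Each p-value sets a difference against the spread between the deposited replicates. In the main fit limma estimated that spread per gene over all groups of the same time. A group with wider replicate spread, such as wild type on Avicel, therefore had no wider SE of its own.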

Additional observations from a re-analysis of the deposited data

Results flagged for a closer look

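In 3 of the 79 genes every Δos-1 library lay above wild type at 10 h, and every Δos-1Δclr-3 library below Δclr-3. The first held for 77 of the 79 genes, against 15.7% of all genes, and followed from the choice of genes. The second held for 4 of the 79, against 28% of all genes, so it was rarer among the 79. The share of all genes with both is not given here. The log2 difference without os-1 was 0.80 with clr-3 present and -0.37 without it for NCU01088, 0.84 and -0.79 for NCU06138, and 0.72 and -0.21 for NCU10039. Their levels in Δclr-3 were 38.2, 37.3 and 36.8 FPKM for NCU01088, 63.2, 82.9 and 74.5 for NCU06138, and 5.48, 6.37 and 6.05 for NCU10039. In Δos-1Δclr-3 they were 32.0, 24.6 and 29.9, 45.2, 39.6 and 40.6, and 4.89, 5.33 and 4.84. None of the 3 differences in the Δclr-3 background was called by limma, and the difference between the backgrounds was not tested, since the wild type comparison chose the genes.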

How the results depend on the processing

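No call of a gene reversed direction under the alternatives run, but 2 medians over the 79 genes changed sign. Leaving out 1 library at a time gave 31 to 36 called genes for Δos-1Δclr-3 against Δclr-3, 59 to 63 for Δos-2Δclr-3 against Δclr-3, 69 to 74 between them, 19 to 22 for Δcre-1Δclr-3, 36 to 42 for Avicel, 19 to 23 for Δclr-3 at 4 h, 20 to 27 for Pccg1-clr-2, 16 to 24 for Δclr-1 and 10 to 19 for Δclr-2. With the replicate block the counts were 32, 62, 72, 21, 42, 23, 27, 21 and 13, against 32, 62, 72, 21, 42, 24, 26, 22 and 13 without it; among named genes it changed 1 call (ccg-14 in Pccg1-clr-2, 1.504, limma adjusted p = 0.049). A threshold of 0.8 left 38 genes, of which 34 were called for Δos-2Δclr-3, 35 between the double deletions, 12 for Δcre-1Δclr-3, 23 for Avicel, 13 for Δclr-3 at 4 h, 15 for Pccg1-clr-2, 9 for Δclr-1 and 6 for Δclr-2, a fall that comes with fewer genes. On Avicel 25 genes were called after rescaling, 22 in the whole-series table and 14 with the 2 groups fitted alone. For Pccg1-clr-2 the counts were 17 with a pseudocount of 5, 16 after rescaling and 14 in the whole-series table. With the 2 groups fitted alone, 11 were called for Δclr-1 and 5 for Δclr-2, where fewer samples set the spread. The median log2 fold change of the 79 genes ran, without 1 library each, from 0.705 to 0.831, from -1.59 to -1.51, from 2.46 to 2.57, from -0.238 to -0.174, from -1.10 to -0.86, from -0.156 to 0.083, from -0.71 to -0.527, from 0.506 to 0.598 and from 0.436 to 0.605 in the same order of comparisons. For Δos-1Δclr-3 it was 0.815 with a pseudocount of 0.1, 0.70 with 5, 1.28 for genes past 0.8 and 0.71 for those past 0.5. For Δos-2Δclr-3 it was -1.75, -1.19, -1.71 and -1.25 under these settings, -1.21 after rescaling, -1.17 in the whole-series table and -1.62 for genes chosen on rescaled values. Between the double deletions it was 2.62, 1.81, 3.14 and 2.08 under the first 4 settings, 2.22 after rescaling and 2.14 in the table. For Δcre-1Δclr-3 it was 0.136 after rescaling, 0.117 in the table, -0.0472 past 0.8 and -0.331 on rescaled values. After rescaling and in the table it was -0.523 and -0.524 for Avicel, 0.106 and 0.143 for Δclr-3 at 4 h, -0.346 and -0.298 for Pccg1-clr-2, 0.275 and 0.272 for Δclr-1, and 0.197 and 0.20 for Δclr-2. With pseudocounts of 0.1 and 5 it was 0.668 and 0.363 for Δclr-1, and with 5 it was 0.413 for Δclr-2. A threshold of 0.5 (99 genes) and, added after seeing the data, members chosen on rescaled values (65 genes) kept each count within 1.5 times. Of the values of named genes, 72 lost and 20 gained a call in some fit without 1 library, and 1744 did neither. Under the other settings 109 lost and 27 gained one, and 2568 did neither; the cause was not tested. The 4 h comparisons rest on libraries of uneven depth and wider replicate spread, which limits what they can detect. No promoter sequences were used here, so no motif search was run.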
